A study of Mus musculus with 11 samples.

Results

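Nodal signalling and the primitive streak programme that it drives were followed through 7 genes: the ligand gene Nodal, the inhibitor genes Lefty1 and Lefty2, the nuclear partner gene Foxh1, and the target transcription factor genes Eomes, Mixl1 and Gsc. The 7 genes were chosen by symbol, with earlier results of these data known, from the 56748 genes of the deposited count table. Each symbol matched 1 row, and all 7 passed the filter on low counts that left 16572 genes for testing. The 11 polyA RNA sequencing libraries came from microdissected mouse tailbud at embryonic day 8.5, a tissue labelled as holding neuromesodermal progenitors with somitic and intermediate mesoderm. They comprised 3 libraries homozygous for the Fgfr1 allele FCPG (Fgfr1 FCPG/FCPG), 4 homozygous for the allele FCSPG (Fgfr1 FCSPG/FCSPG) and 4 wild-type (WT) libraries. Both alleles carry point mutations in residues through which the receptor FGFR1 binds its signalling effectors, and the study asked how transcription in developing mesoderm depends on canonical FGF signalling. The labels do not say that each library is a separate embryo, so p-values measure the spread between these libraries, which may in part be technical.

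Libraries are named by the number in their column. Total counts ran from 16014698 to 25453070. All 10 tailbud markers, such as T, Tbx6 and Cdx2, were detected in every library, with summed levels of 248 to 1249 CPM, counts scaled to library size, in FCPG, 774 to 1321 CPM in FCSPG and 714 to 1187 CPM in WT. The lowest sum belonged to FCPG library 45, in which Cdx4, a caudal homeobox gene, had 0.354 CPM, against 170 to 263 CPM in WT. Cyp26a1 alone of these markers did not lie below every WT library in library 45, at 143 CPM against 45.8 to 104 CPM in WT. Detection in library 45 rested on 6 reads for Cdx4, 8 for Wnt3a and 9 for Hes7. Cdx4, Cyp26a1, Wnt3a and Hes7 were picked after their values were seen. The same library had the highest sum of 18 visceral endoderm markers, genes of the extraembryonic layer around the epiblast. Libraries 19, 45 and 46 of FCPG had sums of 1664, 17190 and 4627 CPM, against 843 to 3899 CPM in FCSPG and 184 to 1216 CPM in WT. WT library 33 stood apart from the other WT libraries in Nodal, Lefty1 and Foxh1, as described below. By Y-linked and Xist counts, 2 of 3 FCPG, 1 of 4 FCSPG and 0 of 4 WT libraries were male. The males were FCPG libraries 19 and 45 and FCSPG library 32. A term for embryo sex is thus estimated within the mutants only, and cannot be fully separated from genotype or from library 45. Fgfr1 itself averaged 201 ± 35.5 CPM in FCPG, 190 ± 39.4 CPM in FCSPG and 192 ± 18.8 CPM in WT (SD, n = 3, 4 and 4), which does not check the labels, since point mutations need not alter a transcript's level.

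NODAL is a secreted ligand of the TGF-beta family that binds activin receptors together with a co-receptor, CRIPTO or CRYPTIC. The receptors phosphorylate SMAD2 and SMAD3, which enter the nucleus with SMAD4 and act on target genes with DNA-binding partners such as FOXH1. The targets include Nodal itself and the Lefty genes, whose products block the receptor step, so that the pathway feeds forward and limits itself. In the mouse gastrula the pathway patterns the epiblast and induces the primitive streak, where mesoderm and endoderm form, and at the tailbud stage Nodal and the Lefty genes act around the node and in left lateral plate to set the left-right axis.

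Start-site sequences were held for 3 of the 7 genes, and they are shown as the windows in which letters of FOXH1, SMAD and T-box sites were searched. The sequences are the 250 bases before the RefSeq start in GRCm38.p6, read 5′ to 3′ on the gene's strand. Capitals mark CCAAT, a general promoter element, and TATAAA, a form of the TATA box, on either strand. Only these exact letters are marked. Other forms of both elements were not searched, and a match does not show that the element is used.
Nodal, chr10:61417722-61417971, plus strand: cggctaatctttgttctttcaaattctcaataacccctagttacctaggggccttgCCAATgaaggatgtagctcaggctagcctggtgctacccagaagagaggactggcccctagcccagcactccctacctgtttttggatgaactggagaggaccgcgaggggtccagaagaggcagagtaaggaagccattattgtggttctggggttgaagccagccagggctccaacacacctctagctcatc
Eomes, chr9:118477939-118478188, plus strand: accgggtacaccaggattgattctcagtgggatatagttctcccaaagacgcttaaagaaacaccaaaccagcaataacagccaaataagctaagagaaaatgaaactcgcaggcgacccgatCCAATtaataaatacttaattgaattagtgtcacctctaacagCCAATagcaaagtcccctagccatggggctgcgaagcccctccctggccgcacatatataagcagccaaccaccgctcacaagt
Gsc, chr12:104473237-104473486, minus strand: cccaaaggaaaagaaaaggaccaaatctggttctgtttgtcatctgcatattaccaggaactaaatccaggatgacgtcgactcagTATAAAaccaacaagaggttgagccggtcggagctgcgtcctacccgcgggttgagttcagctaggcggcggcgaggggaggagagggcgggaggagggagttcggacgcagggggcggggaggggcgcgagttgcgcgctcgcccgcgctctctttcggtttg
Nodal held 1 CCAAT, starting 194 bases before the start, and Eomes held 2, at 127 and 84 bases before it. Gsc held 1 TATAAA, 164 bases before its start, and no CCAAT. Of all 32851 promoter windows of the same table, 33.9% held CCAAT and 12.4% held TATAAA. AATNCACA, a form of the FOXH1 site, TCACACCT, a T-box element, and CAGAC, a SMAD element, were searched on both strands. They had 0 matches in the 3 windows and occurred in 3.18%, 1.12% and 42.2% of all windows. Other forms of these sites, and bases outside the 250, were not searched, so sites there are not covered.

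Nodal, the ligand gene (ENSMUSG00000037171, mm39 chr10:61253751-61261117, plus strand), was expressed at a low level in every library. It had 1.69, 1.54 and 2.19 CPM in FCPG libraries 19, 45 and 46. The values in FCSPG libraries 13, 27, 30 and 32 were 0.299, 1.38, 0.480 and 2.47 CPM. In WT libraries 24, 25, 26 and 33 it had 0.0529, 0.376, 0.195 and 7.19 CPM. The 3 FCPG libraries lay close together and above 3 of the 4 WT libraries, while WT library 33 was the highest of all 11. The WT counts behind these values were 1, 8 and 5 reads in libraries 24, 25 and 26 and 139 in library 33. With all libraries the log2 fold change was −0.11 ± 1.21 (SE) for FCPG over WT and −0.73 ± 1.13 for FCSPG over WT, with adjusted p-values of 0.973 and 0.807 (edgeR's quasi-likelihood test, Benjamini-Hochberg over all genes tested). Without WT library 33 the same values were 3.06 (edgeR adjusted p = 0.0864) and 2.44 (edgeR adjusted p = 0.318), both of the opposite sign.

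**Figure D1:**
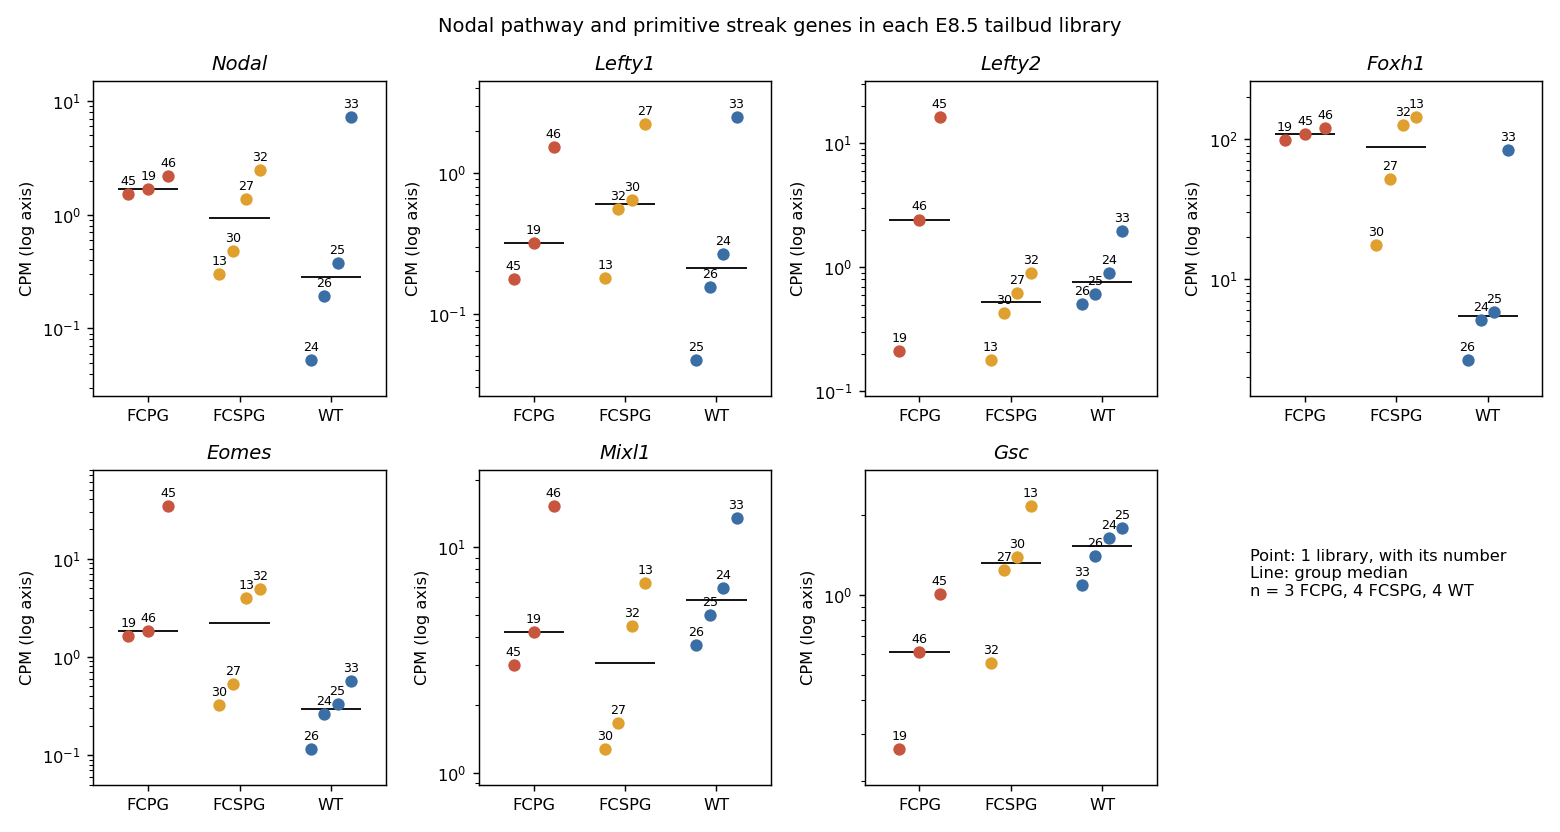
CPM of each gene on a log axis (CPM axes differ between panels), with 1 point for each library, numbered, and a line at the group median (n = 3 FCPG, 4 FCSPG and 4 WT). WT library 33 lies at 7.19 CPM for Nodal and 84.0 CPM for Foxh1, away from the other WT libraries, and FCPG library 45 lies at 34.1 CPM for Eomes and 16.2 CPM for Lefty2.

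The inhibitor genes Lefty1 and Lefty2 encode secreted TGF-beta-related proteins that block NODAL and its co-receptors, and they lie near each other on chromosome 1. Lefty1 (ENSMUSG00000038793) spans chr1:180762587-180765965 and Lefty2 (ENSMUSG00000066652) chr1:180720673-180726668, both on the plus strand of mm39. Their coding sequences, each 1107 bases in GENCODE M21, were 91.9% identical, and 26.6% of the 50-base words of the Lefty2 coding sequence also occurred in that of Lefty1. The longest shared run was 140 bases, from coding position 493 to 632, and reads that fall inside it cannot be assigned to either gene. How the authors' counting treated such reads is not given in the sources used here, so the split between both genes is uncertain where reads fall in shared stretches. Lefty2 also overlaps the antisense transcript ENSMUSG00000121043 by 1336 bases, which had 0 to 4 counts in each library.

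Lefty1 had 0.317, 0.177 and 1.52 CPM in FCPG libraries 19, 45 and 46. FCSPG libraries 13, 27, 30 and 32 had 0.179, 2.24, 0.641 and 0.554 CPM of Lefty1. In WT libraries 24, 25, 26 and 33 it had 0.264, 0.0469, 0.156 and 2.48 CPM. The groups overlapped, and the highest WT library was again 33. The log2 fold change was −0.13 ± 1.20 for FCPG over WT and 0.32 ± 1.08 for FCSPG over WT (edgeR adjusted p = 0.966 and 0.915), and 2.08 and 2.52 without WT library 33 (edgeR adjusted p = 0.272 and 0.358).

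For Lefty2, 1 FCPG library carried most of the signal. It had 0.211, 16.2 and 2.43 CPM in FCPG libraries 19, 45 and 46. In FCSPG libraries 13, 27, 30 and 32 it had 0.179, 0.619, 0.427 and 0.907 CPM. It had 0.898, 0.610, 0.506 and 1.97 CPM in WT libraries 24, 25, 26 and 33. Library 45 was far above every other library, library 46 was above all WT libraries, and library 19 was below them all. The log2 fold change of FCPG over WT was 2.66 ± 1.00 (edgeR adjusted p = 0.163), and it was 0.39 without FCPG library 45 (edgeR adjusted p = 0.890) and 1.51 with a term for embryo sex (edgeR adjusted p = 0.707). FCSPG over WT gave −0.87 ± 0.99 (edgeR adjusted p = 0.738). The change between the mutants, FCSPG over FCPG, was −3.53 ± 1.04 (edgeR adjusted p = 0.435), and −1.27 without FCPG library 45. Without FCPG library 19 it was −4.07 and passed (edgeR adjusted p = 0.0266), in a fit that called 1063 genes, against 0 genes in the fit of all 11 libraries.

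Foxh1, the forkhead factor that carries activated SMADs to DNA (ENSMUSG00000033837, chr15:76552425-76554148, minus strand of mm39), was by far the most abundant of the 7 genes in the mutants. It had 98.7, 110 and 120 CPM in FCPG libraries 19, 45 and 46. FCSPG libraries 13, 27, 30 and 32 had 143, 52.0, 17.4 and 126 CPM of Foxh1. In WT libraries 24, 25, 26 and 33 it had 5.07, 5.82, 2.65 and 84.0 CPM. All 3 FCPG libraries were above all 4 WT libraries, and all 4 FCSPG libraries were above 3 of the 4 WT libraries, with WT library 33 inside the FCSPG range. Foxh1 supplied 66.2% to 92.2% of the summed CPM of the 7 genes in FCPG and 79.3% to 91.3% in FCSPG, against 30.4% to 41.6% in WT libraries 24, 25 and 26 and 75.9% in WT library 33.

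The difference in Foxh1 did not pass the adjusted threshold. The means were 110 ± 10.8 CPM in FCPG and 24.4 ± 39.8 CPM in WT (SD, n = 3 and 4), a log2 fold change of 2.17 ± 1.04 (edgeR adjusted p = 0.251). FCSPG averaged 84.6 ± 59.8 CPM (SD, n = 4), a log2 fold change over WT of 1.80 ± 0.99 (edgeR adjusted p = 0.502). Without WT library 33 these values were 4.61 and 4.24 (edgeR adjusted p = 0.0708 and 0.137). Between the mutants the log2 fold change, FCSPG over FCPG, was −0.37 ± 1.02 (edgeR adjusted p = 0.880).

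Eomes, a T-box factor required for the exit of mesoderm and endoderm from the epiblast and also made in trophoblast and visceral endoderm (ENSMUSG00000032446, chr9:118307280-118315200, plus strand of mm39), had 1.64, 34.1 and 1.82 CPM in FCPG libraries 19, 45 and 46. The values in FCSPG libraries 13, 27, 30 and 32 were 3.95, 0.523, 0.320 and 4.94 CPM. In WT libraries 24, 25, 26 and 33 it had 0.264, 0.329, 0.117 and 0.569 CPM. Every FCPG library exceeded every WT library, and 2 of 4 FCSPG libraries did, the other 2 falling inside the WT range.

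The log2 fold change of Eomes in FCPG over WT was 5.29 ± 1.29 (edgeR adjusted p = 0.104), and 2.43 without FCPG library 45 (edgeR adjusted p = 0.453). With a term for embryo sex it was 3.17 (edgeR adjusted p = 0.593), but FCPG library 45 was male and no WT library was. Permuting the labels exactly, two-sided, on mean log2 CPM gave p = 0.0286, the smallest that 3 against 4 libraries allow. For FCSPG over WT the log2 fold change was 2.93 ± 1.20 (edgeR adjusted p = 0.446), with an exact permutation p of 0.143. In the authors' deposited table, which lists only genes with p under 0.05, Eomes in FCSPG over WT had a log2 value of 2.94 with an adjusted p of 0.0183. For FCPG over WT the authors' deposited table does not list Eomes; DESeq2 refitted here to only these libraries gave it no p-value. The antisense gene Gm33460 overlaps the 3′ part of Eomes by 574 bases and had 0 to 13 counts in each library.

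Mixl1, a homeobox gene of the primitive streak (ENSMUSG00000026497, chr1:180520608-180524599, minus strand of mm39), had 4.22, 3.01 and 15.2 CPM in FCPG libraries 19, 45 and 46. In FCSPG libraries 13, 27, 30 and 32 it had 6.94, 1.67, 1.28 and 4.48 CPM, and in WT libraries 24, 25, 26 and 33 it had 6.61, 5.02, 3.70 and 13.5 CPM. FCPG library 46 and WT library 33 were high, FCSPG libraries 27 and 30 were below all WT libraries, and the groups overlapped. The log2 fold change was 0.06 ± 0.69 in FCPG over WT (edgeR adjusted p = 0.973), and −0.99 without FCPG library 46. In FCSPG over WT it was −1.0 ± 0.65 (edgeR adjusted p = 0.554).

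Gsc, a homeobox gene of the anterior streak and organizer (ENSMUSG00000021095, chr12:104437468-104439589, minus strand of mm39), was the 1 gene of the 7 with lower values in every FCPG library than in any WT library. It had 0.264, 1.00 and 0.608 CPM in FCPG libraries 19, 45 and 46. In FCSPG libraries 13, 27, 30 and 32 it had 2.15, 1.24, 1.39 and 0.554 CPM. It had 1.64, 1.78, 1.40 and 1.09 CPM in WT libraries 24, 25, 26 and 33. The gap was narrow, between 1.00 CPM in FCPG library 45 and 1.09 CPM in WT library 33, and the counts ranged from 5 to 38 reads. The log2 fold change of FCPG over WT was −1.24 ± 0.53 (edgeR adjusted p = 0.202), with an exact permutation p of 0.0286, the smallest possible. With a term for embryo sex it was −0.68 (edgeR adjusted p = 0.757). The authors' deposited table gives −1.24 with an adjusted p of 0.153. FCSPG over WT was −0.15 ± 0.46 (edgeR adjusted p = 0.905), and FCSPG over FCPG was 1.09 ± 0.53 (edgeR adjusted p = 0.438).

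Over the 7 genes together, 0 passed edgeR's adjusted threshold in FCPG against WT, where 0% of the 16572 genes tested passed. At an unadjusted p under 0.05, Eomes and Lefty2 were higher and Gsc lower, 3 of 7 against a background of 21.9% of all genes (13% higher and 8.88% lower). DESeq2 fitted to the 3 groups called Eomes (adjusted p = 0.00198) and Lefty2 (adjusted p = 0.0495), 2 of 7, both higher, against a background of 8.07% (5.67% higher and 2.4% lower). DESeq2 on only the FCPG and WT libraries, an alternative chosen after seeing the data, called 1202 genes. It gave Lefty2 an adjusted p of 0.0770, so that call did not hold. Eomes, with a log2 fold change of 5.31, and Nodal were given no p-value, so that fit did not test them. The authors' deposited table gives Lefty2 a log2 value of 2.67 with an adjusted p of 0.0775. Foxh1 and Eomes did not overlap WT and were higher, where 7.57% of all genes did so, and Gsc did not overlap and was lower, where 6.98% did. With limma-voom 0 of the 7 genes passed, and 0% of all genes. Without FCPG library 19, edgeR called Eomes (log2 5.79, adjusted p = 0.0153) and Lefty2 (log2 3.21, adjusted p = 0.0191), among 2736 genes called. The median log2 fold change of the 7 genes was 0.06, against 0.00 over all genes tested. The 7 genes were chosen with earlier results known, so their shares against all genes are not independent of that choice.

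**Figure D2:**
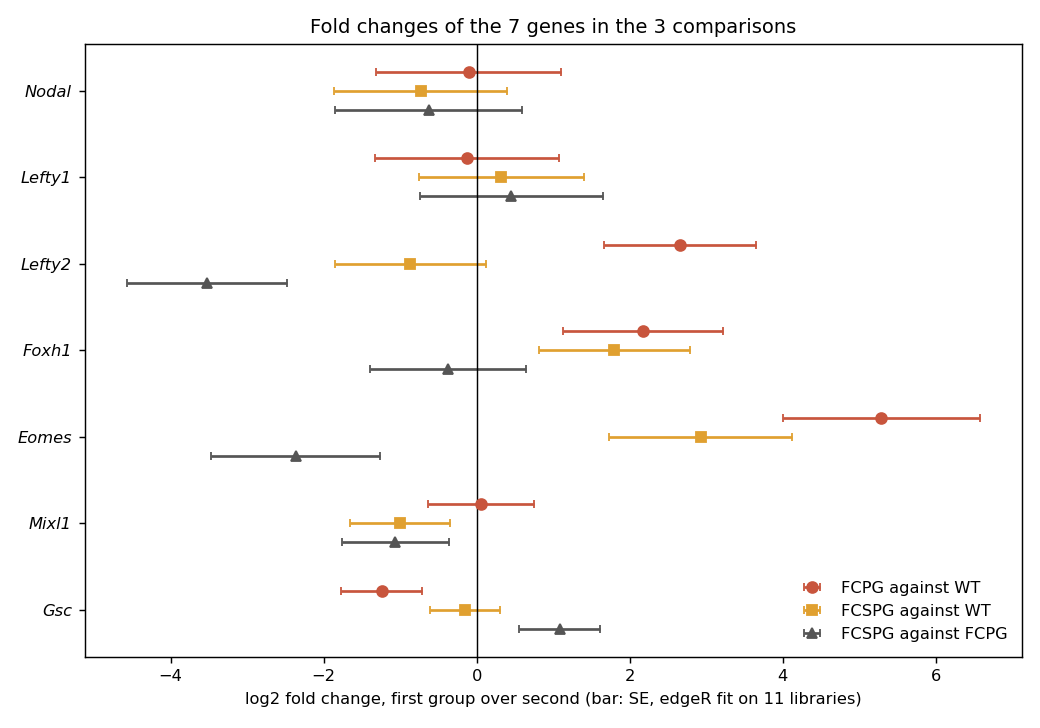
Log2 fold change of each gene in FCPG against WT, FCSPG against WT and FCSPG against FCPG, with bars for the SE of the edgeR fit on 11 libraries. Eomes reaches 5.29 and Lefty2 2.66 in FCPG against WT, and Gsc lies at −1.24, but 0 of the 7 genes pass the adjusted threshold.

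In FCSPG against WT, 0 of the 7 genes passed edgeR's adjusted threshold, with 0% of all genes. Eomes alone had an unadjusted p under 0.05, 1 of 7 against a background of 11% of all genes (6.24% higher and 4.76% lower). Both DESeq2 fitted to the 3 groups, which called 0.23% of all genes (0.123% higher and 0.107% lower), and limma-voom, which called 0%, called 0 of the 7. DESeq2 on only the FCSPG and WT libraries, an alternative chosen after seeing the data, called Eomes (adjusted p = 0.0198) among 468 genes. The authors' deposited table gives Eomes an adjusted p of 0.0183. No member separated the groups, where 4% of all genes lay wholly higher and 3.35% wholly lower. The median log2 fold change of the 7 genes was −0.15, against 0.00 over all genes.

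In FCSPG against FCPG, 0 of the 7 genes passed with edgeR (0% of all genes), DESeq2 (0.00327% of all genes) or limma-voom (0%). Lefty2 alone had an unadjusted edgeR p under 0.05, 1 of 7 against a background of 11.4% (4.77% higher and 6.67% lower). No member separated the mutants, against 2.34% of all genes wholly higher and 2.33% wholly lower. Eomes was −2.37 ± 1.10 on the log2 scale (edgeR adjusted p = 0.437), but 0.48 without FCPG library 45, the opposite sign. Mixl1 gave −1.06 ± 0.70, Nodal −0.63 ± 1.22 and Lefty1 0.45 ± 1.20 on the log2 scale, with edgeR adjusted p-values of 0.503, 0.823 and 0.877. The FCPG and FCSPG comparisons with WT share the 4 WT libraries, so their values are not independent of each other.

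Levels between genes were compared per length, as the FPKM values, fragments scaled to transcript length and library size, that the authors deposited. In FCPG the median levels were 80.0 FPKM for Foxh1, 1.83 for Mixl1, 0.929 for Lefty2, 0.803 for Nodal, 0.478 for Gsc, 0.438 for Eomes and 0.179 for Lefty1. In FCSPG they were 64.5 FPKM for Foxh1, 1.33 for Mixl1, 1.03 for Gsc, 0.535 for Eomes, 0.439 for Nodal, 0.338 for Lefty1 and 0.198 for Lefty2. In WT they were 3.95 FPKM for Foxh1, 2.51 for Mixl1, 1.19 for Gsc, 0.286 for Lefty2, 0.135 for Nodal, 0.119 for Lefty1 and 0.0706 for Eomes. Foxh1 was first in every group and clear of Mixl1 in every library of both mutants, while their WT ranges overlapped (1.93 to 61.5 and 1.60 to 5.86 FPKM). Among the other neighbours in each order, the ranges over libraries overlapped, except in WT, where Mixl1 lay above Gsc and Gsc above Lefty2 in all 4 libraries.

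The levels of some of the 7 genes varied together across the 11 libraries, which share tissue, depth and the group structure. Of the 21 pairs examined, Foxh1 and Eomes had a Pearson r of 0.75 (permutation p = 0.00677, 0.123 after Benjamini-Hochberg adjustment). Their Spearman rho was 0.93 (permutation p = 0.00016, adjusted 0.00336), and r was 0.65 without the 2 libraries farthest from the median of Foxh1. Nodal and Gsc had r = −0.61 (permutation p = 0.0475, adjusted 0.249) and rho = −0.81 (permutation p = 0.00400, adjusted 0.0420), with r = −0.57 without the 2 libraries farthest from the median of Nodal. Nodal and Lefty1 had r = 0.67 (permutation p = 0.0256, adjusted 0.179) and rho = 0.64 (permutation p = 0.0411, adjusted 0.269), with r = 0.68 after the same omission. Nodal and Foxh1 had r = 0.73 (permutation p = 0.0117, adjusted 0.123) and rho = 0.56 (permutation p = 0.0757, adjusted 0.318), with r = 0.50 after it.

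The gene most like Foxh1 over the libraries, among 14268 genes with a mean of at least 1 CPM, was Cfc1, which encodes the NODAL co-receptor CRYPTIC (Pearson r = 0.988 on log2 CPM, 11 libraries). Cfc1 had 15.9, 29.8 and 33.6 CPM in FCPG libraries 19, 45 and 46. The values in FCSPG libraries 13, 27, 30 and 32 were 30.4, 9.61, 1.92 and 22.9 CPM. In WT libraries 24, 25, 26 and 33 it had 0.951, 1.31, 0.272 and 17.5 CPM, so library 33 was again the highest WT library. Next came Kifc2 (r = 0.976), a kinesin gene whose 3′ end lies 28 bases from that of Foxh1 on the opposite strand, and Anxa7 (r = 0.967), an annexin gene. Foxh1 had 1.03 to 4.00 reads for each Kifc2 read, and Ppp1r16a, a neighbour on the same chromosome chosen for its position, stayed at 40.6 to 57.0 CPM in all libraries. Whether the counting used strand is not stated, so reads that run past the end of 1 of these genes cannot be told from reads of the other.

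**Figure D3:**
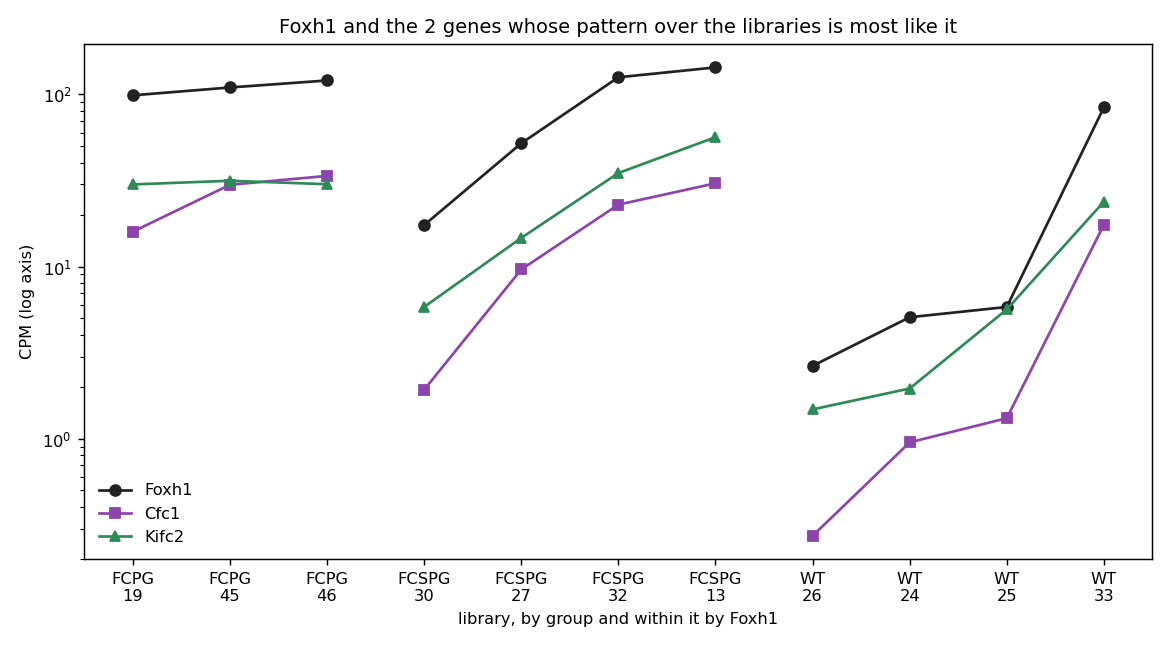
CPM on a log axis of Foxh1, Cfc1 and Kifc2 in the 11 libraries, grouped by genotype and ordered within each group by Foxh1. The 3 genes move together, and in WT library 33 they lie at 84.0, 17.5 and 23.8 CPM, above the other WT libraries.

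The genes most like Eomes were Map7 (r = 0.990), which encodes a microtubule-associated protein, Atp6ap2 (r = 0.985), of the vacuolar proton pump, and Stx7 (r = 0.981), an endosomal syntaxin. Those most like Lefty2 were Dnajc3 (r = 0.970), a chaperone gene of the endoplasmic reticulum, Numb (r = 0.949) and Stk10 (r = 0.949). Nodal was most like Helz2 (r = 0.923), Rtn4rl1 (r = 0.852) and the pseudogene Gm10167 (r = 0.850), and Lefty1 most like Atg16l2 (r = 0.860), Mxd4 (r = 0.852) and Slc23a2 (r = 0.823). Mixl1 was most like Dennd2c (r = 0.901), Thumpd3 (r = 0.870) and Arrdc4 (r = 0.858), and Gsc most like Lrrc70 (r = 0.867), Otulinl (r = 0.862) and Myl12a (r = 0.861). These are descriptions over 11 libraries that share groups and depth.

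The levels of the 7 genes were set beside marker lists of the cell types that a tailbud dissection could hold. These lists too were chosen with earlier results of these data known, so their shares against all genes are not independent of that choice. In bulk tissue, fewer cells of a type and less RNA per cell cannot be told apart. The 10 epiblast markers, such as Pou5f1, Nanog, Sox2 and Dnmt3b, summed to 403 to 559 CPM in FCPG and to 223 to 773 CPM in FCSPG. Their sum was 158, 166, 137 and 348 CPM in WT libraries 24, 25, 26 and 33. The highest WT sum was that of library 33, in which Nodal, Lefty1 and Foxh1 were also highest among WT. Dnmt3b was the largest part of the sum in every library, with 419 of the 559 CPM in FCPG library 45. Sox2 ran the other way in that library, at 1.06 CPM against 40.3 to 55.4 CPM in WT. It was also below WT in FCPG library 46, but had 54.0 CPM in FCPG library 19. In FCSPG its values lay on both sides of WT, from 30.3 to 97.6 CPM. In WT library 33 Sox2 was the lowest of WT. Pou5f1, Sox2 and Dnmt3b were picked after their values were seen. At an unadjusted edgeR p under 0.05, 4 of the 9 epiblast markers tested were higher in FCPG and 4 in FCSPG than in WT, against 13% and 6.24% of all genes, and 0 were lower; the median log2 fold change was 1.79 in FCPG and 1.22 in FCSPG. Up to 1 epiblast marker was at 0 in a mutant library and up to 2 in a WT library.

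FCPG library 45, highest in Eomes and Lefty2, was also highest in visceral endoderm markers, at 17190 CPM. Of the 17 visceral endoderm markers tested, 16 in FCPG and 11 in FCSPG were higher than in WT at an unadjusted edgeR p under 0.05, against the same 13% and 6.24% of all genes, with median log2 fold changes of 3.60 and 2.27. The defining markers were not at 0 in any FCPG library, while up to 1 was at 0 in an FCSPG library and up to 2 in a WT library. The 10 definitive endoderm and hindgut markers, such as Sox17 and Foxa3, summed to 1064 to 2620 CPM in FCPG, highest in library 45, to 1022 to 1676 CPM in FCSPG and to 494 to 1006 CPM in WT, and none was at 0 in any library. At that threshold 9 of the 10 were higher in FCPG and 6 in FCSPG than in WT, and 0 were lower, with median log2 fold changes of 1.40 and 0.93. Sox17 is also in the visceral endoderm list, and Foxa2 is also among the streak regulators. The 10 markers of extraembryonic ectoderm and trophoblast summed to 238 to 753 CPM in FCPG, 163 to 553 CPM in FCSPG and 104 to 277 CPM in WT. Hand1 and Rhox5 held most of these sums, with 622 and 68.5 CPM of the 753 CPM in FCPG library 46. Elf5 had 0 to 1.76 CPM and Tpbpa 0 to 0.295 CPM over all libraries. Of the 9 markers of this list tested, 3 in FCPG and 4 in FCSPG were higher than in WT at an unadjusted edgeR p under 0.05. Up to 1 of the 10 was at 0 in a library. FCPG library 46, highest in Mixl1, had the highest sum of 6 primordial germ cell markers, 264 CPM, against 74.4 to 92.6 CPM in WT. Kit held 163 CPM of that sum. FCPG libraries 19 and 45 had 70.6 and 66.3 CPM, below every WT library, and FCSPG had 82.6 to 114 CPM. The 6 primitive blood markers had sums of 181, 21.0 and 2.61 CPM in FCPG libraries 19, 45 and 46, below every WT library. Their sums were 36.8 to 373 CPM in FCSPG and 246 to 3067 CPM in WT. The part of these marker differences in the levels of the 7 genes was not tested. All these lists were chosen with earlier results of these data known, which limits the comparison with the shares of all genes.

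**Figure D4:**
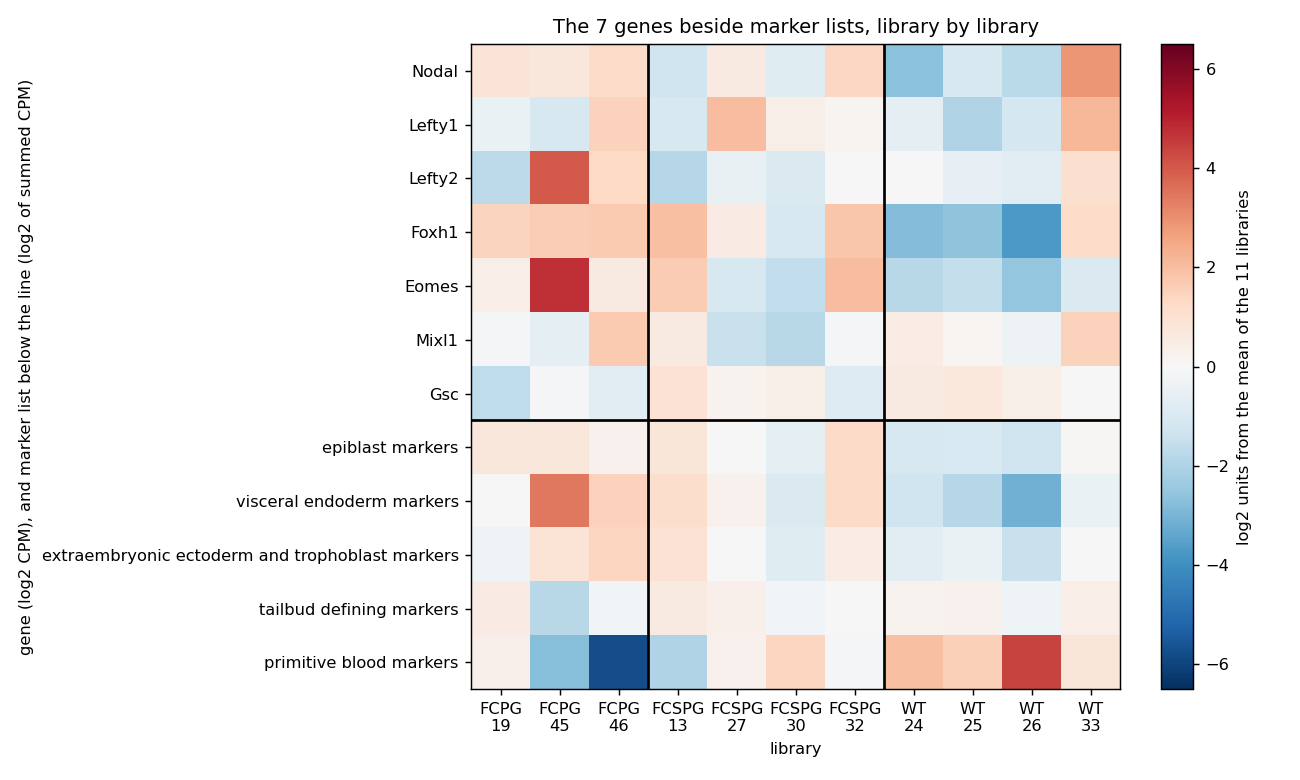
Log2 units from the mean of the 11 libraries for each gene (log2 CPM) and, below the line, for the summed CPM of 5 marker lists, with libraries in columns. FCPG library 45 is high in Eomes, Lefty2 and visceral endoderm markers and low in tailbud markers, and WT library 33 is high in Nodal, Lefty1 and Foxh1.

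The other genes of the pathway were read from 5 lists, also chosen with earlier results of these data known. In FCPG against WT, 0 genes of the 5 lists passed edgeR's adjusted threshold. The counts at an unadjusted p under 0.05 stand against 13% of all genes higher and 8.88% lower in FCPG, and 6.24% higher and 4.76% lower in FCSPG. Among partner ligands and ligand processing, 1 of 3 genes tested was higher at an unadjusted p under 0.05: Furin, which encodes a protease that cleaves the NODAL precursor, averaged 157 ± 87.2 CPM in FCPG and 66.4 ± 13.4 CPM in WT (SD, n = 3 and 4), a log2 fold change of 1.25 ± 0.34 (edgeR adjusted p = 0.111). Gdf3, a related ligand gene, gave 2.06 ± 1.03 (edgeR adjusted p = 0.269), and Pcsk6, a related protease gene, gave −0.51 ± 0.25 (edgeR adjusted p = 0.250). The FCPG libraries lay wholly below WT in Pcsk6, as they did in 6.98% of all genes tested. Gdf1, the ligand that pairs with NODAL in left-right patterning, was at 0 in all 11 libraries. Gdf1 lies within Cers1 on the same strand over 1771 bases, and Cers1 had 4 to 26 counts, so reads of both genes cannot be told apart there.

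Among receptors and co-receptors, 1 of 4 tested genes was higher at an unadjusted p under 0.05. Acvr1b, the type I receptor for NODAL, averaged 81.3 ± 33.7 CPM in FCPG and 49.1 ± 7.50 CPM in WT (SD, n = 3 and 4; log2 0.73 ± 0.29, edgeR adjusted p = 0.177). Cfc1 averaged 26.5 ± 9.30 CPM in FCPG and 5.01 ± 8.33 CPM in WT (log2 2.41 ± 1.15, edgeR adjusted p = 0.248), and Acvr2a, a type II receptor gene, gave 0.15 ± 0.27. Tdgf1, which encodes the co-receptor CRIPTO and is named after its values were seen, had 148 counts (8.74 CPM) in FCPG library 45 and 0 to 2 counts in every other library.

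Of 4 signal transducers tested, 0 had an unadjusted edgeR p under 0.05 in FCPG against WT: Smad3 gave −0.46 ± 0.22, Smad2 0.09 ± 0.11 and Drap1, a repressor of FOXH1 activity, −0.17 ± 0.15 on the log2 scale. Among antagonists and feedback inhibitors, 1 of 8 was higher and 1 lower at that threshold: Smad7, an inhibitory SMAD gene, gave 0.78 ± 0.33 and Ski, a SMAD co-repressor gene, −0.44 ± 0.17. Tgif1, another co-repressor gene, gave −0.44 ± 0.20 (edgeR adjusted p = 0.230).

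Among 12 other primitive streak regulators, 2 were higher and 2 lower in FCPG against WT at an unadjusted edgeR p under 0.05, against 13% and 8.88% of all genes. Mesp1, a factor of the earliest mesoderm, had 13.1, 19.6 and 18.7 CPM in FCPG libraries 19, 45 and 46. In FCSPG libraries 13, 27, 30 and 32 it had 34.9, 6.61, 1.82 and 15.6 CPM, and in WT libraries 24, 25, 26 and 33 it had 1.43, 2.96, 0.934 and 6.93 CPM. Its log2 fold change was 2.49 ± 0.84 in FCPG (edgeR adjusted p = 0.135) and 2.27 ± 0.80 in FCSPG (edgeR adjusted p = 0.446). Its FCPG libraries lay wholly above WT, as did those of 7.57% of all genes tested. Foxa2, an endoderm and node factor, gave 1.16 ± 0.50, and T, which encodes brachyury, −0.92 ± 0.40, in FCPG. The other gene that was lower was Tbx6, at −1.21 ± 0.55 in FCPG.

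In FCSPG against WT, 0 genes of these lists passed the adjusted edgeR threshold, and the unadjusted p under 0.05 was reached by 2 of 12 streak regulators. These were Mesp1, higher, and Tbx6, a presomitic mesoderm factor, lower. Tbx6 averaged 23.0 ± 6.70 CPM in FCSPG and 51.4 ± 5.10 CPM in WT (SD, n = 4 each), a log2 fold change of −1.16 ± 0.50 (edgeR adjusted p = 0.446). Its FCSPG libraries lay wholly below WT, as did those of 3.35% of all genes tested. In the ligand, receptor, transducer and antagonist lists 0 genes reached it.

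**Figure D5:**
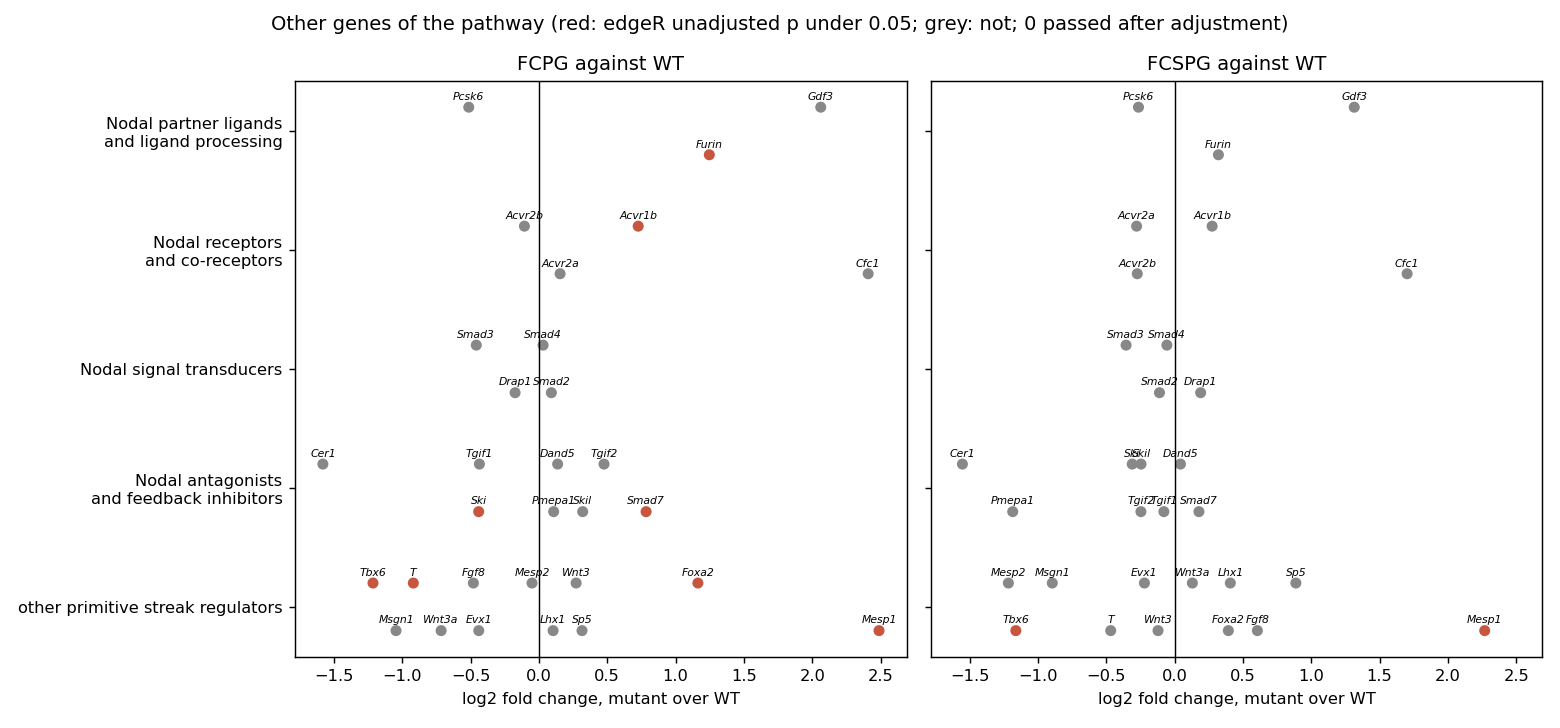
Log2 fold change over WT in FCPG (left) and FCSPG (right) of the genes tested in 5 lists, 1 point for each gene, in red for an unadjusted edgeR p under 0.05. Most points lie within 1 log2 unit of 0, with Mesp1 at 2.49 in FCPG and 2.27 in FCSPG among the exceptions.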

How the data were processed

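PolyA mRNA of 11 mouse tailbud libraries was sequenced from stranded libraries, per the labels' protocols. The authors aligned reads with HISAT2 to mm39, counted them per gene with featureCounts and tested with DESeq2, per the submitters' processing notes, which give no versions or options. The deposited counts are whole numbers; the FPKM values, deposited for the same genes, served only to compare levels between genes. The authors' deposited tables of log2 fold changes with p-value list only genes with p under 0.05, and were turned here to mutant over WT and to FCSPG over FCPG.

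Libraries were assigned by the genotype in the column names. Genes were kept by filterByExpr, leaving 16572 of 56748 that held at least 99.9% of each library's counts. All 11 libraries entered 1 model of the 3 genotypes in edgeR 4.0.16 (R 4.3.3), scaled by TMM, and each comparison was read from its two-sided quasi-likelihood F test. Adjustment was by Benjamini-Hochberg over all genes tested, a gene was called at an adjusted p under 0.05, and fold size was not a criterion. CPM used TMM factors, and log2 CPM a prior count of 2. DESeq2 1.42.0, limma-voom 3.58.1, other filters and scalings, a sex term and the omission of each library were alternatives. Single values were tested by exact permutation of library labels; pair correlations used 100000 permutations. The scripts were tested on simulated data.

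The 7 genes and all lists were chosen with earlier results of these data known. Of each pathway list, the up to 3 genes with the smallest p and genes at 0 are named; for likeness, the 3 genes with the highest Pearson r. Total counts set the precision of low genes, where a level rests on a few reads. Some items are not reported here.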

Additional observations from a re-analysis of the deposited data

Results flagged for a closer look

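In the WT group, library 33 lay apart from the other 3 libraries for 3 of the 7 genes, and 14 combinations of a gene and a group of 4 were examined. The measure is the gap to the nearest library divided by the group's whole range, set against Dixon's 95% critical value for 4 libraries. Nodal had 7.19 CPM in WT library 33 and 0.376 CPM in the nearest WT library, a ratio of 0.955. Lefty1 had 2.48 CPM in WT library 33 and 0.264 CPM in the nearest, a ratio of 0.911. Foxh1 had 84.0 CPM in WT library 33 and 5.82 CPM in the nearest, a ratio of 0.961. The critical value presumes normally distributed values, which was not checked, and the ratios were taken on CPM and not on log2 CPM. The rate at which chance flags a group is therefore not known here. The 3 values come from 1 library, so they are not independent. The epiblast markers of that library summed to 348 CPM, against 137 to 166 CPM in the other WT libraries. Its visceral endoderm markers were also the highest of WT, at 1216 CPM against 184 to 671 CPM, and its primitive blood markers the lowest, at 246 CPM against 425 to 3067 CPM; their part in these values was not tested. Groups of 3 libraries, such as FCPG, were not examined in this way.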

How the results depend on the processing

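No paired analysis was possible because the columns carry other numbers than the sample titles. The count of the 7 genes past the adjusted threshold in FCPG against WT was 0 with edgeR and 2 with DESeq2 on the 3 groups. With DESeq2 on only the libraries compared, which called 1202 genes, it was 0, but Eomes and Nodal were given no p-value. The count was 1 with no filter on low counts (Eomes, among 403 genes). It was 0 to 2 when 1 library was left out, the 2 being Eomes and Lefty2 without FCPG library 19, where 2736 genes passed. In FCSPG against WT it was 1 (Eomes, among 468 genes) with DESeq2 on only the libraries compared, an alternative chosen after seeing the data, and in FCSPG against FCPG it was 0 to 1 over the omissions, the 1 being Lefty2 without FCPG library 19, where 1063 genes passed. Signs turned as follows on the log2 scale. With limma-voom, FCPG over WT was 1.99 for Nodal, 0.68 for Lefty1 and −0.11 for Mixl1, and FCSPG over WT was 1.00 for Nodal. With a sex term Lefty1 in FCPG was 0.57. In female libraries alone, chosen after seeing the data, Gsc in FCSPG was 0.092. Without both WT library 33 and FCPG library 45, also chosen after seeing the data, Nodal was 3.17 in FCPG and 2.44 in FCSPG, Lefty1 was 2.52 in FCPG and Eomes was 0.49 in FCSPG over FCPG. Leaving out 1 library gave these ranges in FCPG over WT: −0.52 to 3.06 for Nodal, −1.53 to 2.08 for Lefty1 and −0.99 to 0.56 for Mixl1. In FCSPG over WT they were −1.42 to 2.44 for Nodal, −0.65 to 2.52 for Lefty1 and −0.49 to 0.092 for Gsc. In FCSPG over FCPG they were −2.99 to 0.48 for Eomes and −0.52 to 1.85 for Lefty1. The cause was not tested. Fitted with only the groups compared, Lefty1 in FCPG and Nodal in FCSPG over WT missed the filter on low counts and gave no value. Foxh1 stayed positive over WT under every alternative run, from 1.79 to 4.61 in FCPG and 1.41 to 4.24 in FCSPG, as did Eomes, from 2.43 to 5.81 and 2.13 to 3.35. With a sex term, Eomes in FCPG was 3.17 (edgeR adjusted p = 0.593), Lefty2 1.51 and Gsc −0.68. FCPG library 45 was male and no WT library was, so this term cannot fully separate sex from genotype or from that library. Nodal, Lefty1, Gsc and, in WT, Eomes rest on few reads per library, which limits the precision of their fold changes.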
